A study of Rattus norvegicus with 18 samples.

Results

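The genes examined here build, attach and trim asparagine-linked (N-linked) glycans in the endoplasmic reticulum (ER). They were taken from a list of 42 genes, and a gene was a member when the platform annotation gave it a probe set with a single gene, with the brightest of its probe sets over all arrays standing for the gene. Of the 42 genes, 38 had such a probe set, among 14217 genes on the array that did, while Alg6, Alg13, Gfpt1 and Uap1 had none and were not analysed here. The phosphoacetylglucosamine mutase gene Pgm3 lay under the limit on low signals, so 37 members were tested, and each of the 37 reached that limit on the control arrays alone. The members fall into 4 steps, with 6 tested genes of sugar supply, 16 of lipid-linked glycan assembly, 9 subunits of the oligosaccharyltransferase and 6 genes of glycan trimming.

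N-glycosylation starts with activated sugars, chiefly UDP-N-acetylglucosamine and GDP-mannose, which glycosyltransferases of the ER membrane add in a fixed order to the lipid dolichol phosphate. The oligosaccharyltransferase moves the finished glycan from dolichol to asparagines of proteins entering the ER lumen, and glucosidases and mannosidases then shorten it. The trimmed glycan is read by the lectin chaperones calnexin and calreticulin and by lectins that send misfolded glycoproteins to degradation, and several genes of the pathway are known targets of the unfolded protein response.

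The study used clone #4S2, a rat INS-1 insulinoma (pancreatic β-cell) line that carries the pTet-ON transactivator and a doxycycline-inducible fusion of a folding-deficient mutant insulin 2 with EGFP, Ins2 (C96Y)-EGFP. Control cells received no doxycycline, and treated cells received it at 2 µg/ml. Both were harvested at 24 h, at 48 h and at 5 days, which gives 6 groups of 3 arrays, or 18 arrays. Control cells carry the same 2 constructs, all cells come from 1 clone sorted for high EGFP after induction, and the sources used here list no array of doxycycline-treated parental cells, so on these arrays an effect of the fusion protein and an effect of doxycycline itself cannot be told apart. The paper reports, without showing the data, that this doxycycline dose left Grp78 and Chop mRNA and protein unchanged in parental INS-1 cells. Neither gene is among the members. Arrays of a time that share a replicate number, 1 control and 1 doxycycline, form a pair. RNA came from whole cultures, in which fewer cells of a kind and less RNA per cell cannot be told apart.

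Of 10 markers of β-cells, 9 had a probe set, and their summed signal lay between 87619 and 118344 on all arrays. The sum is carried by the brightest of them. At 48 h all doxycycline arrays lay below all control arrays for 5 of the 9, Iapp, Pdx1, Mafa, Slc2a2 and Neurod1, and for none at 24 h. Of all probe sets tested, 10.8% did so at 48 h and 3.72% at 24 h, so the count at 24 h says nothing particular. Mafa, a transcription factor of mature β-cells, read 4333, 4677 and 5057 on the control arrays of 48 h and 1993, 2290 and 2415 on the doxycycline arrays. Of 18 markers of other islet cells, acinar and duct cells and fibroblasts, 17 had a probe set. The 15 other than glucagon and Krt7 stayed at or under 94.7, down to the floor of 5.99 set on the values. Among them at 48 h, Hhex lay below and Col3a1 above its control arrays without overlap, where 10.8% and 11.3% of all probe sets did. Krt7 lay between 891 and 1502, and at 48 h its doxycycline arrays, too, lay below its control arrays. Glucagon also differed with treatment at 48 h, and the summed signal of the 5 measured markers of other islet cells, most of it glucagon, lay between 1591 and 2186 on the control arrays of 48 h and between 368 and 401 on the doxycycline arrays. The part of these markers in the results was not tested. At 5 days the libraries labelled as pair 1 ran against the other pairs and the doxycycline library of pair 2 had a raised GAPDH 3'/5' ratio, so that time is described last, with and without them.

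Promoters are shown for the 6 members with the highest mean log2 ratio at 48 h among those past the threshold, because response elements for the unfolded protein response lie close to the start sites of known target genes. They are RefSeq windows of the rat assembly GRCr8, from 250 bases before to 50 bases after the start site, written 5′ to 3′ on the gene's strand, with matches to the searched motifs in capitals.
Magt1, chrX:75145163-75145462, strand -: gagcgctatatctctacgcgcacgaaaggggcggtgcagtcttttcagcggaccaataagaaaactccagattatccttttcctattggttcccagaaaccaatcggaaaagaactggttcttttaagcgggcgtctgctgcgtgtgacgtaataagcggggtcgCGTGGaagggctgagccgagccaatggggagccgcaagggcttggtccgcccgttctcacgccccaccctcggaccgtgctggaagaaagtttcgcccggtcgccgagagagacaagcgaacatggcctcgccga
Alg12, chr7:121788934-121789233, strand -: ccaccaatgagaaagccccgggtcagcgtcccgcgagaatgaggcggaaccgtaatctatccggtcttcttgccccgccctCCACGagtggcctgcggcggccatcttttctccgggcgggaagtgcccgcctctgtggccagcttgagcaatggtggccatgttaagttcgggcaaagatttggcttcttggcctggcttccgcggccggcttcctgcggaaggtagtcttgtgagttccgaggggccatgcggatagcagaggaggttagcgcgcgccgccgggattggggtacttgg
Stt3a, chr8:44671911-44672210, strand -: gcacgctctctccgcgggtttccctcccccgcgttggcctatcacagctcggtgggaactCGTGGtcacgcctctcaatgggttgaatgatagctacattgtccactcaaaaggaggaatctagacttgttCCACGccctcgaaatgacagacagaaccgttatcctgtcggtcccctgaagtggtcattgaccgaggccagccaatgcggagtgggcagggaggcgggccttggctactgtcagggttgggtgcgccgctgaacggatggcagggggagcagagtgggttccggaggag
Man1b1, chr3:28541841-28542140, strand +: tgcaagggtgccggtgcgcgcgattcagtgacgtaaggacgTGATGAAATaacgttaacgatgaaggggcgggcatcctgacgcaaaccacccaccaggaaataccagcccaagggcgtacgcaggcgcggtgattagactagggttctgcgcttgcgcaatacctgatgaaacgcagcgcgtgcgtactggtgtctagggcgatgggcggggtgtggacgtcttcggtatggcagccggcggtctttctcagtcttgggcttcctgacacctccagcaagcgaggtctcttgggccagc
Ostc, chr2:221940204-221940503, strand -: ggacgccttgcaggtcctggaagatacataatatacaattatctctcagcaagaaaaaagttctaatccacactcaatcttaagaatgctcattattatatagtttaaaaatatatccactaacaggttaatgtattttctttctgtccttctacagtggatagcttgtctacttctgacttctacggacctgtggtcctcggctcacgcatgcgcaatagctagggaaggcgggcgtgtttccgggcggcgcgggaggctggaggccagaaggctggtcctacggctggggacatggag
Ddost, chr5:155805362-155805661, strand +: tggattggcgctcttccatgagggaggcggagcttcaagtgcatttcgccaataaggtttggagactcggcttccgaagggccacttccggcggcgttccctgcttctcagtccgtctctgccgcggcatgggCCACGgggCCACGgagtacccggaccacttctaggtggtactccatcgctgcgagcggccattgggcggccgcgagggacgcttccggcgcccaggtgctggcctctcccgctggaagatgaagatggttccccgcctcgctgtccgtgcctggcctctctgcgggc

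The capitals mark CCACG, the shorter conserved part of the ER stress response element, on either strand in Magt1, Alg12, Stt3a and Ddost. In Man1b1 they mark TGATGNAAT, the core of the element bound by ATF4. The Ostc window held no match. The whole ER stress response element and its second form, ERSE-II, both searched on both strands, were in none of the 40 windows that RefSeq gives for 39 of the listed genes, against 0.0657% and 0.0508% of all 33469 promoters. Among the promoters of genes tested here, 0.176% and 0.117% held them. CCACG was in 23 of the 40 windows, against 31.6% of all promoters and 48.7% of the promoters of genes tested here. ACGTGG, the core of the unfolded protein response element, which on the opposite strand reads as CCACG with a T after it, was in 6 of the 40, against 7.84% and 11.4%. TGATGNAAT was in the window of Man1b1 alone among the members, in 1.09% of all promoters and in 0.411% of the promoters of genes tested here. A match is a description of the letters and not a binding site.

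The question of each time point is which of these genes differ between cells that make the misfolded insulin and untreated cells. At 48 h, 8 of the 37 members rose and none fell, by limma fitted to the 6 arrays with the pair as a block (Benjamini-Hochberg adjusted p under 0.05 over 15521 probe sets). Of all probe sets tested, 2.33% rose and 1.19% fell. The median log2 ratio of the members was 0.29 (pair medians 0.27, 0.29 and 0.36), against -0.01 over all probe sets tested. In 19 members all 3 doxycycline arrays lay above all 3 control arrays, and in Pmm1 and Alg8 all 3 lay below. For all probe sets these shares were 11.3% and 10.8%. Before adjustment, 21 members were higher at a p under 0.05 and 1, Pmm1, was lower, where 12.2% and 12.5% of all probe sets were.

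At 24 h, 2 members rose, Magt1 and Ostc, and none fell, where 0.193% of all probe sets rose and 0.0129% fell. The median log2 ratio of the members was 0.14 (pair medians 0.11, 0.15 and 0.23), against -0.01 over all probe sets. In 10 members the doxycycline arrays lay above the control arrays without overlap, where 5.03% of all probe sets did, and in none below, where 3.72% did. Before adjustment, 15 members were higher at a p under 0.05 and Pmm1 was lower, where 7.75% and 6.94% of all probe sets were.

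**Figure D1:**
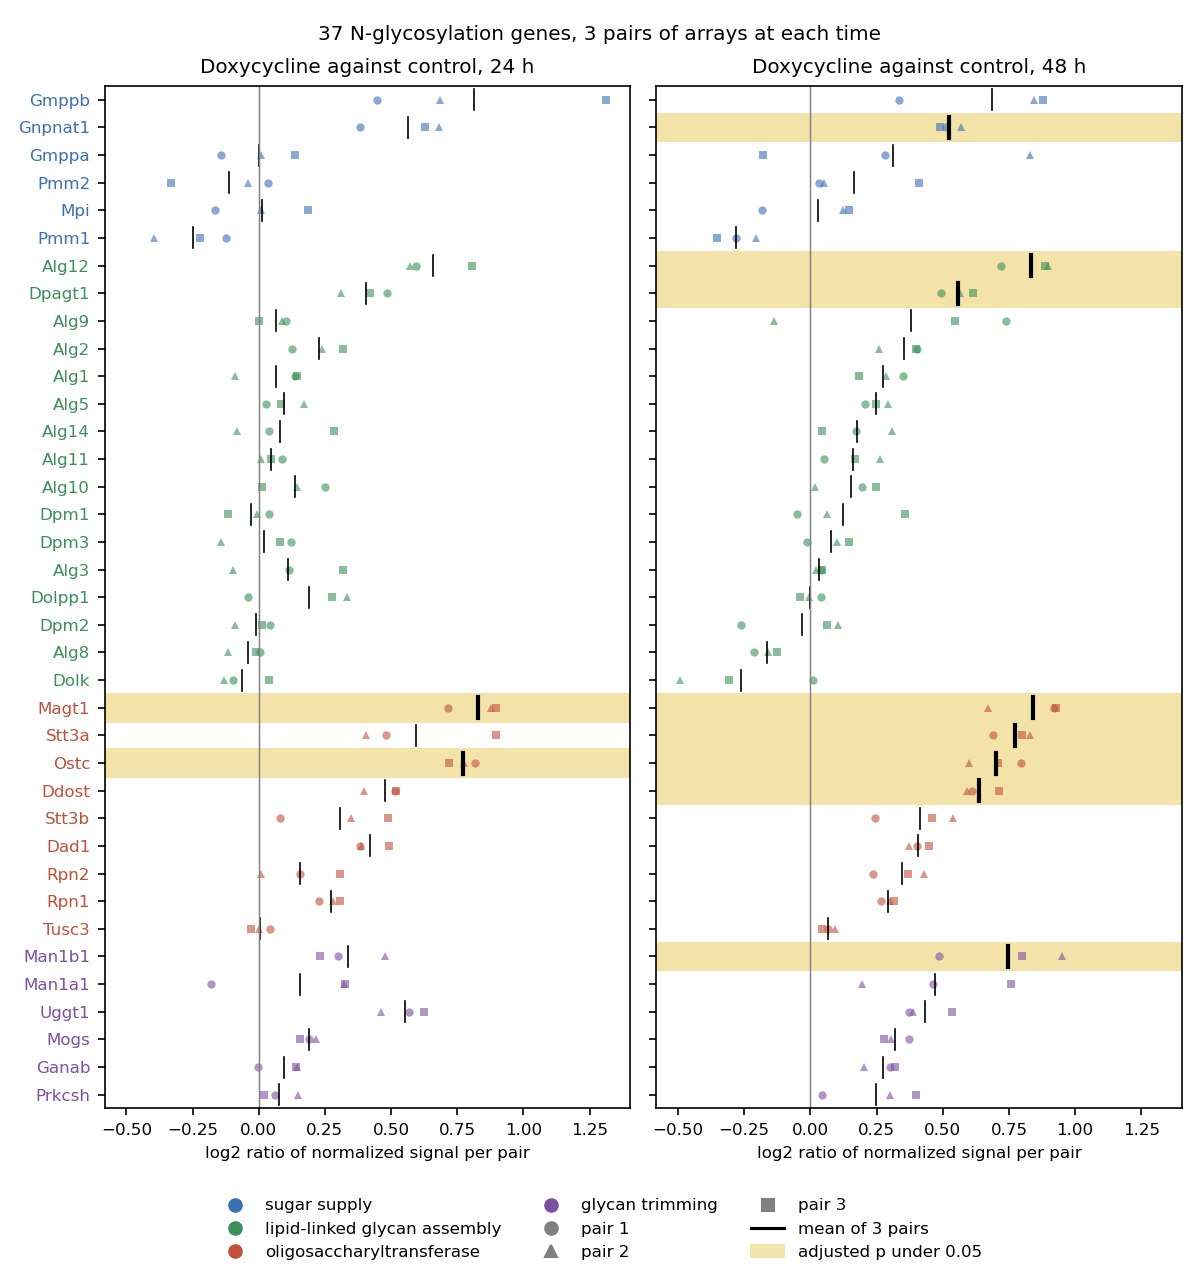
Log2 ratio of normalized signal, doxycycline over control, on the horizontal axis for each of the 37 members tested at 24 h (left) and 48 h (right), with a symbol for each of the 3 pairs and a bar at their mean. Shaded genes passed the threshold of an adjusted p under 0.05 (2 at 24 h, 8 at 48 h). All 9 transferase genes and all 6 trimming genes have a mean above 0 at both times, Tusc3 at 24 h barely so (0.005).

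The oligosaccharyltransferase held 4 of the 8 members that rose at 48 h and both that rose at 24 h. The shares of all probe sets that rose were 2.33% at 48 h and 0.193% at 24 h. The 9 transferase subunits had a median log2 ratio of 0.42 at 24 h and 0.41 at 48 h. In 8 of the 9 the doxycycline arrays of 48 h lay above the control arrays without overlap, where 11.3% of all probe sets did. The enzyme exists in forms built on the catalytic subunit STT3A or STT3B, which share the subunits of Rpn1, Rpn2, Ddost and Dad1.

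Magt1 encodes an oxidoreductase subunit of the STT3B form. Its normalized signal was 1345, 1804 and 2029 on the control arrays of 24 h (replicates 1 to 3) and 2208, 3311 and 3772 on the doxycycline arrays. At 48 h it was 1862, 2192 and 2032 on the control arrays and 3527, 3495 and 3865 on the doxycycline arrays. At both times each doxycycline array lay above each control array, with the lowest doxycycline array of 24 h close to the highest control array. The ratio within pairs was 1.78 ± 0.119 (SD, n = 3) at 24 h and 1.80 ± 0.175 at 48 h, with log2 ratios of 0.83 (SE 0.08, limma adjusted p = 0.0439) and 0.84 (SE 0.09, limma adjusted p = 0.0233).

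Tusc3, which encodes the alternative to MAGT1 in the same place of the enzyme, had the lowest ratio of the subunits. Its signal was 7047, 6552 and 6884 on the control arrays of 48 h and 7382, 6985 and 7091 on the doxycycline arrays. The groups overlapped, although each doxycycline array was above its own control. The log2 ratio was 0.00 at 24 h and 0.07 (SE 0.07, limma adjusted p = 0.597) at 48 h.

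Ostc encodes a small subunit found in the STT3A form, which sits at the translocon. On the 24 h arrays its signal was 3818, 4233 and 5393 in control cells and 6720, 7254 and 8867 with doxycycline. On the 48 h arrays it was 4672, 5124 and 4953 in control cells and 8109, 7754 and 8096 with doxycycline. The groups stood apart at both times, with little spread among the arrays of 48 h. The ratio within pairs was 1.71 ± 0.0585 (SD, n = 3) at 24 h (log2 ratio 0.77, SE 0.07, limma adjusted p = 0.0439) and 1.63 ± 0.111 at 48 h (log2 ratio 0.70, SE 0.08, limma adjusted p = 0.0260).

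Stt3a, the catalytic subunit that acts during translocation, had a signal of 564, 739 and 518 on the control arrays of 24 h and of 786, 979 and 964 on the doxycycline arrays. At 48 h the values were 699, 557 and 528 against 1127, 990 and 920, and at neither time did the groups overlap. Stt3a rose at 48 h by a ratio of 1.71 ± 0.0870 (SD, n = 3), a log2 ratio of 0.77 (SE 0.07, limma adjusted p = 0.0215), while the log2 ratio of 0.59 at 24 h did not pass (limma adjusted p = 0.138). Its second probe set had log2 ratios of 0.51 and 0.40, neither past the threshold. Stt3b, the catalytic subunit that acts on sites left unmodified, had a log2 ratio of 0.41 (SE 0.09, limma adjusted p = 0.0762) at 48 h.

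Ddost encodes a structural subunit of both forms. Its signal on the control arrays was 2485, 3091 and 3724 at 24 h and 3170, 3579 and 3651 at 48 h. On the doxycycline arrays it was 3547, 4068 and 5339 at 24 h and 4835, 5393 and 5987 at 48 h. The groups overlapped at 24 h, where control replicate 3 lay above doxycycline replicate 1, and stood apart at 48 h. At 48 h the ratio within pairs was 1.56 ± 0.0721 (SD, n = 3), a log2 ratio of 0.64 (SE 0.07, limma adjusted p = 0.0272). The other shared subunits Dad1, Rpn2 and Rpn1 had log2 ratios of 0.41, 0.34 and 0.29 at 48 h, with limma adjusted p of 0.0550, 0.0825 and 0.0885.

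**Figure D2:**
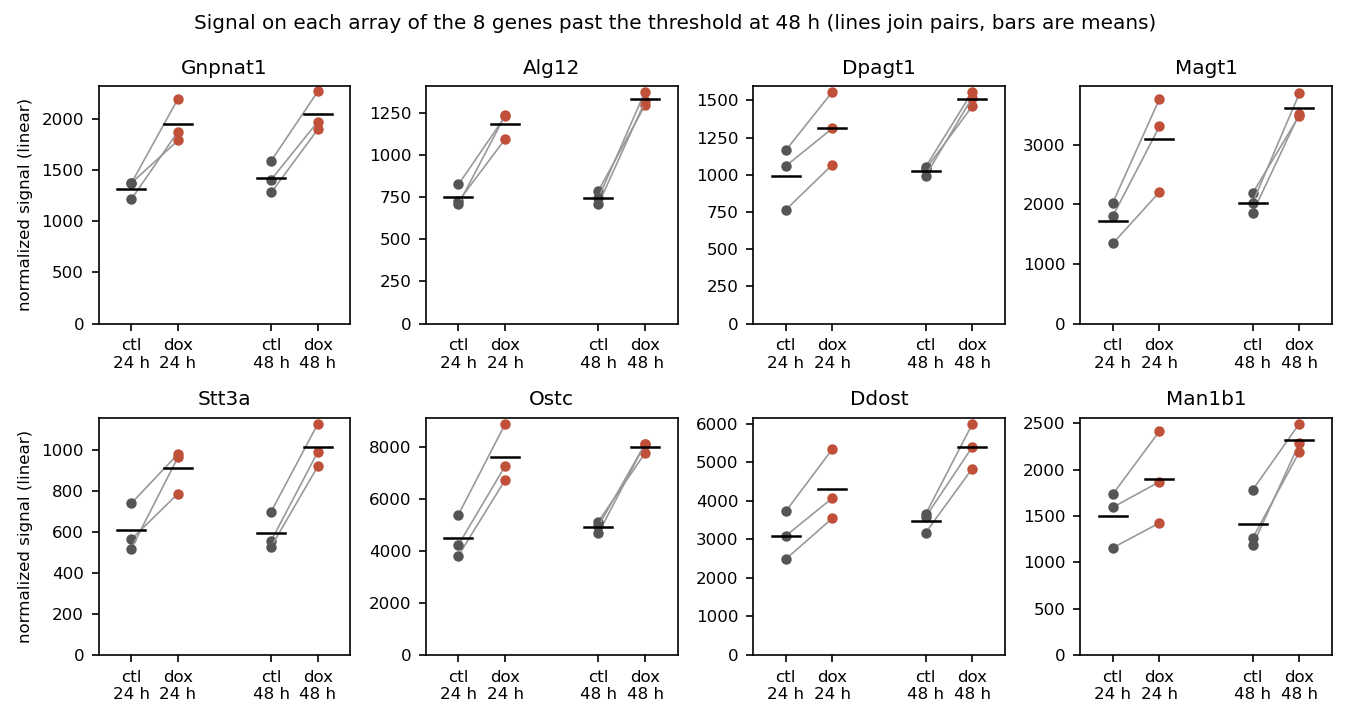
Normalized signal (linear scale from 0) on each control (ctl) and doxycycline (dox) array of 24 h and 48 h for the 8 members past the threshold at 48 h. Points are arrays, grey lines join the arrays of a pair and bars are means of 3, and at 48 h all doxycycline points lie above all control points in each of the 8 genes.

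In lipid-linked glycan assembly 2 of 16 members rose at 48 h, Alg12 and Dpagt1, and none at 24 h. At these times 2.33% and 0.193% of all probe sets rose. The median log2 ratio was 0.07 at 24 h and 0.16 at 48 h. Alg12 encodes a mannosyltransferase of the ER lumen that acts late in assembly. Its signal was 787, 708 and 744 on the control arrays of 48 h and 1296, 1319 and 1376 on the doxycycline arrays, groups that lie far apart for their spread. The ratio within pairs was 1.79 ± 0.122 (SD, n = 3), a log2 ratio of 0.83 (SE 0.08, limma adjusted p = 0.0203). At 24 h the arrays read 726, 826 and 707 in control cells and 1094, 1229 and 1236 with doxycycline, also without overlap (log2 ratio 0.66, limma adjusted p = 0.0635).

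Dpagt1 encodes the enzyme that starts the dolichol-linked glycan and is the target of tunicamycin. Its signal at 48 h was 1036, 1051 and 993 on the control arrays and 1459, 1555 and 1518 on the doxycycline arrays. The arrays of each group lay close together and the groups did not overlap. The ratio was 1.47 ± 0.0604 (SD, n = 3), a log2 ratio of 0.56 (SE 0.07, limma adjusted p = 0.0335). At 24 h control arrays of 763, 1058 and 1163 and doxycycline arrays of 1067, 1311 and 1557 overlapped (log2 ratio 0.40, limma adjusted p = 0.132). A second, dimmer probe set of Dpagt1 under the limit on low signals gave -0.24 at 48 h, and with the mean of both the call was lost (0.16, limma adjusted p = 0.461).

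The genes at the other end of this step were Dolk, the dolichol kinase, Alg8, a glucosyltransferase, and Dpm2, a subunit of dolichol-phosphate-mannose synthase. Dolk read 690, 863 and 860 on the control arrays of 48 h and 694, 614 and 695 on the doxycycline arrays. These groups overlapped through control replicate 1, and the log2 ratio of -0.26 (SE 0.12, limma adjusted p = 0.243) did not pass. Alg8 had a log2 ratio of -0.17 and Dpm2 of -0.03. Between these and Alg12 lay Alg9, Alg2, Alg1 and Alg5, all mannosyl- or glucosyltransferases of assembly, with log2 ratios of 0.38, 0.35, 0.27 and 0.25 that did not pass. The 3 genes of dolichol-phosphate-mannose synthase had log2 ratios between -0.03 and 0.12 at 48 h. Dpm1, with 0.12, has 3 dimmer probe sets under the limit on low signals that ran as low as -1.84, and the mean of its 4 probe sets fell at 48 h (log2 ratio -0.56, limma adjusted p = 0.0365).

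In sugar supply 1 of 6 members rose at 48 h and none at 24 h, with median log2 ratios of 0.24 and 0.01. At these times 2.33% and 0.193% of all probe sets rose, and 1 gene of 6 says little about the step. Gnpnat1 encodes the acetyltransferase on the way to UDP-N-acetylglucosamine. At 48 h its signal was 1593, 1283 and 1410 on the control arrays and 2273, 1902 and 1977 on the doxycycline arrays. The groups did not overlap, and replicate 1 was highest in each. The ratio was 1.44 ± 0.0409 (SD, n = 3), a log2 ratio of 0.52 (SE 0.07, limma adjusted p = 0.0350). At 24 h the arrays read 1375, 1373 and 1216 against 1792, 2200 and 1879, again without overlap (log2 ratio 0.56, limma adjusted p = 0.0945). Pgm3, the next enzyme but untested for its low signal, had log2 ratios of 0.42 at 24 h and 0.27 at 48 h. Its second, dimmer probe set gave -0.93 at 24 h and 1.81 at 48 h, so the probe sets disagree in direction at 24 h.

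On the GDP-mannose branch the members went apart. Gmppb, the catalytic subunit of GDP-mannose pyrophosphorylase, read 328, 242 and 225 on the control arrays of 48 h and 413, 435 and 414 on the doxycycline arrays. The groups did not overlap, but the pairs differed, and the log2 ratio of 0.69 (SE 0.13, limma adjusted p = 0.0657) did not pass. Its second, slightly dimmer probe set passed at 48 h with 0.73 (limma adjusted p = 0.0381). Pmm1, a phosphomannomutase, read 1497, 1541 and 1468 on the control arrays and 1231, 1337 and 1149 on the doxycycline arrays, all below the controls (log2 ratio -0.28, SE 0.07, limma adjusted p = 0.107). Pmm2, the main enzyme of that reaction in glycosylation, had 0.16, the regulatory subunit gene Gmppa 0.31 and the phosphomannose isomerase gene Mpi 0.03, none past the threshold.

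In glycan trimming 1 of 6 members rose at 48 h and none at 24 h. At these times 2.33% and 0.193% of all probe sets rose, and 1 gene of 6 says little about the step. All 6 trimming members had a mean log2 ratio above 0 at both times, with medians of 0.17 at 24 h and 0.38 at 48 h. Man1b1 encodes an α-mannosidase that trims glycans of glycoproteins bound for degradation. Its signal at 48 h was 1781, 1181 and 1260 on the control arrays and 2494, 2284 and 2191 on the doxycycline arrays. Control replicate 1 stood above the other controls and below all doxycycline arrays. The ratio was 1.69 ± 0.270 (SD, n = 3), a log2 ratio of 0.74 (SE 0.11, limma adjusted p = 0.0411). At 24 h control arrays of 1156, 1734 and 1593 and doxycycline arrays of 1424, 2413 and 1868 overlapped (log2 ratio 0.34, limma adjusted p = 0.189). A second, dimmer probe set of Man1b1 had 0.17 at 48 h, and with the mean of both Man1b1 did not pass.

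Uggt1, the sensor that adds glucose back to the glycans of unfolded glycoproteins, had log2 ratios of 0.55 (limma adjusted p = 0.0714) at 24 h and 0.43 (limma adjusted p = 0.0573) at 48 h, with no overlap of groups at either time. Mogs, which encodes the glucosidase that acts at the start of trimming, had 0.32 at 48 h, and Ganab, the catalytic subunit of the next glucosidase, had 0.27. Prkcsh, the other subunit of that glucosidase, was lowest. It read 3974, 4322 and 4018 on the control arrays of 48 h and 4100, 5326 and 5296 on the doxycycline arrays, which overlapped through doxycycline replicate 1 (log2 ratio 0.25, SE 0.10, limma adjusted p = 0.202).

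All 8 calls of 48 h and both of 24 h were lost when any pair was left out, or when probe sets under the limit on low signals or the 5-day arrays were added to the fit. Without the pair as a block, 0 members passed at 24 h and 6 at 48 h. The shares of all probe sets that passed under these settings are not given here. The losses are therefore not read as particular to the members. With a trend of the prior variance on signal, a setting chosen after seeing the data, 12 members were higher at 24 h and none lower (2.58% and 1.14% of all probe sets), and 20 were higher and 1, Pmm1, lower at 48 h (7.53% and 7.93%). These counts were also 12 and 21 with the upper 75% of probe sets and 0 with all. The 20 were 8 of 9 transferase genes, 6 of 6 trimming genes, 4 of 16 assembly genes and 2 of 6 sugar supply genes. With the 12 arrays of 24 h and 48 h in 1 fit, 9 members were higher at 24 h (1.09% of all probe sets) and 16 at 48 h (5.64%), with none lower at either (0.29% and 4.73%). Of the 16, 8 were transferase, 4 trimming, 3 assembly and 1 sugar supply genes. Tusc3 was the transferase gene that did not pass in either. On the values as normalized here, no member doubled in 2 or more of its 3 pairs at 24 h or 48 h, where 0.29% and 0.509% of all probe sets did. The paper, with its own processing, lists Magt1 as induced more than 2-fold at both times and also at 5 days. On the values here the 5-day pairs of Magt1 had log2 ratios of -1.22, 0.96 and 0.87. The steps were compared by counts and medians, and no difference between steps was tested.

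The difference between the effect at 48 h and that at 24 h was tested in the fit of 12 arrays. None of the 37 members differed (limma, 0% of all probe sets), and before adjustment Man1b1 was the only member with a p under 0.05, higher at 48 h with a difference of log2 ratios of 0.41 (SE 0.14, limma adjusted p = 0.723). Of all probe sets, 3.35% were higher and 3.32% lower before adjustment. The median difference was 0.11, with 26 of 37 above 0. By step it was 0.18 for trimming, 0.10 for assembly, 0.06 for the transferase and -0.01 for sugar supply. Untreated cells of 48 h and 24 h differed in none of the 37 (limma, 0% of all probe sets). Before adjustment none of the 37 had a p under 0.05, where 1.06% of all probe sets were higher and 1.45% lower, with a median difference of 0.07.

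The pathway goes on beyond the members, and 53 further genes were listed, of which 49 had a probe set and 42 were tested. At 48 h 7 of the 42 rose and none fell, where 2.33% and 1.19% of all probe sets did. At 24 h none passed, while before adjustment 18 were higher and 1 lower at a p under 0.05, where 7.75% and 6.94% of all probe sets were. Of the 7, 4 were among the 10 lectins and glycan readers, whose median log2 ratio at 48 h was 0.39. Os9, which delivers misfolded glycoproteins to degradation, read 1412, 1341 and 1214 on the control arrays of 48 h and 1970, 2443 and 2264 on the doxycycline arrays, groups that did not overlap (log2 ratio 0.75, SE 0.11, limma adjusted p = 0.0397). Calr, the lectin chaperone calreticulin, read 5843, 5226 and 5808 against 9360, 8882 and 8297, also without overlap (log2 ratio 0.65, SE 0.08, limma adjusted p = 0.0335). The membrane-bound lectin chaperone calnexin, Canx, rose by a log2 ratio of 0.52 and Edem2, a mannosidase of ER-associated degradation, by 0.51.

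The other 3 were Slc35b1 (0.63), Ugdh (0.61) and Nus1 (0.44). Slc35b1 was listed with the nucleotide-sugar carriers but is known to exchange ATP and ADP across the ER membrane, and Ugdh makes UDP-glucuronic acid, which is not a sugar of N-linked glycans. Nus1 encodes a subunit of the enzyme that makes the dolichol chain. Of the 3 further small transferase subunits, Tmem258 and Krtcap2 had log2 ratios of 0.32 and 0.31 and Ost4 of -0.03, none past the threshold.

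None of the 10 genes of Golgi processing passed at 48 h, and before adjustment 1 was higher and 1 lower at a p under 0.05, shares close to the 12.2% and 12.5% of all probe sets. Their median log2 ratio was -0.09, and it was -0.04 at 24 h. The lowest was Mgat1, which starts the branching of complex glycans in the Golgi. Its log2 ratio was -0.35 (SE 0.11, limma adjusted p = 0.153). None of the 10 had doxycycline arrays above control arrays without overlap at 48 h, and 2 had them below, where 11.3% and 10.8% of all probe sets did, so with 10 genes these counts say nothing particular about them.

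**Figure D3:**
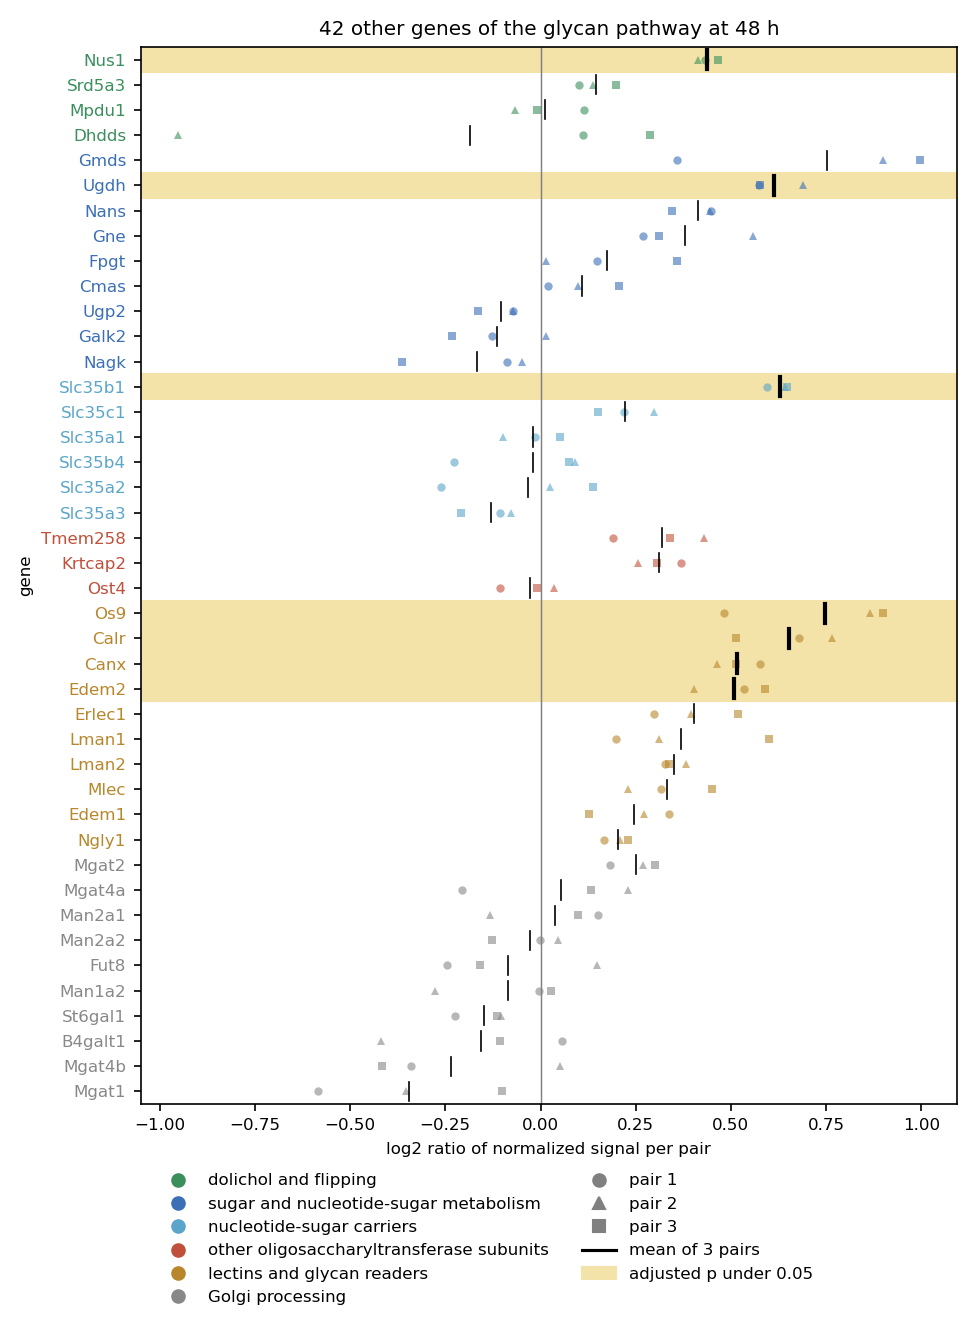
Log2 ratio of normalized signal, doxycycline over control, at 48 h for the 42 further genes of the glycan pathway that were tested, with a symbol for each of the 3 pairs and a bar at their mean. The 7 shaded genes passed the threshold of an adjusted p under 0.05, 4 of them lectins and glycan readers, and all 10 genes of that class lie above 0 in every pair while Golgi processing genes lie on both sides.

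At 5 days no member passed in either direction (limma, 0% of all probe sets either way, smallest adjusted p of any probe set 0.935), and none had a p under 0.05 before adjustment, where 1.11% of all probe sets were higher and 1.37% lower. The pairs did not run the same way. The median log2 ratio of the members was -0.18 in pair 1, 0.25 in pair 2 and 0.31 in pair 3, and 27 members were below 0 in pair 1, against 10 and 8 in the others. The medians of the transferase genes lay widest apart, at -0.57, 0.84 and 0.51.

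Magt1 showed this in each library. Its signal was 2997, 1379 and 1919 under the control label and 1286, 2678 and 3505 under the doxycycline label. In pair 1 the library labelled control was the highest of its group and the library labelled doxycycline the lowest of its own. Ostc had the same order in pair 1, where the control label gave 7629, 4894 and 4456 and the doxycycline label 3184, 8784 and 7951. The same held outside the pathway. Of 537 other probe sets past the threshold at 48 h, 9.31% kept their direction in pair 1 of 5 days, 65.2% in pair 2 and 95.2% in pair 3, where 87.3% to 96.3% did in the pairs of 24 h.

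The doxycycline library of pair 2 had a GAPDH 3'/5' ratio of 2.91, against 1.05 to 1.19 in the other 17, and its median correlation with the other arrays was 0.930, against 0.953 to 0.964. In that pair the trimming genes Man1b1 and Uggt1 had log2 ratios of -1.05 and -0.79 and the assembly gene Dpm2 of -1.17, where pair 3 gave 0.80, 0.53 and -0.23. These are among its lowest members, while 27 of the 37 were above 0 in pair 2, and Uggt1 was at -0.95 in pair 1. The part of RNA quality in these values was not tested. Over 3 pairs the median of the members at 5 days was 0.11. It was 0.32 without pair 1, -0.02 without pair 2 and 0.00 without pair 3, and no member passed in any of these.

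**Figure D4:**
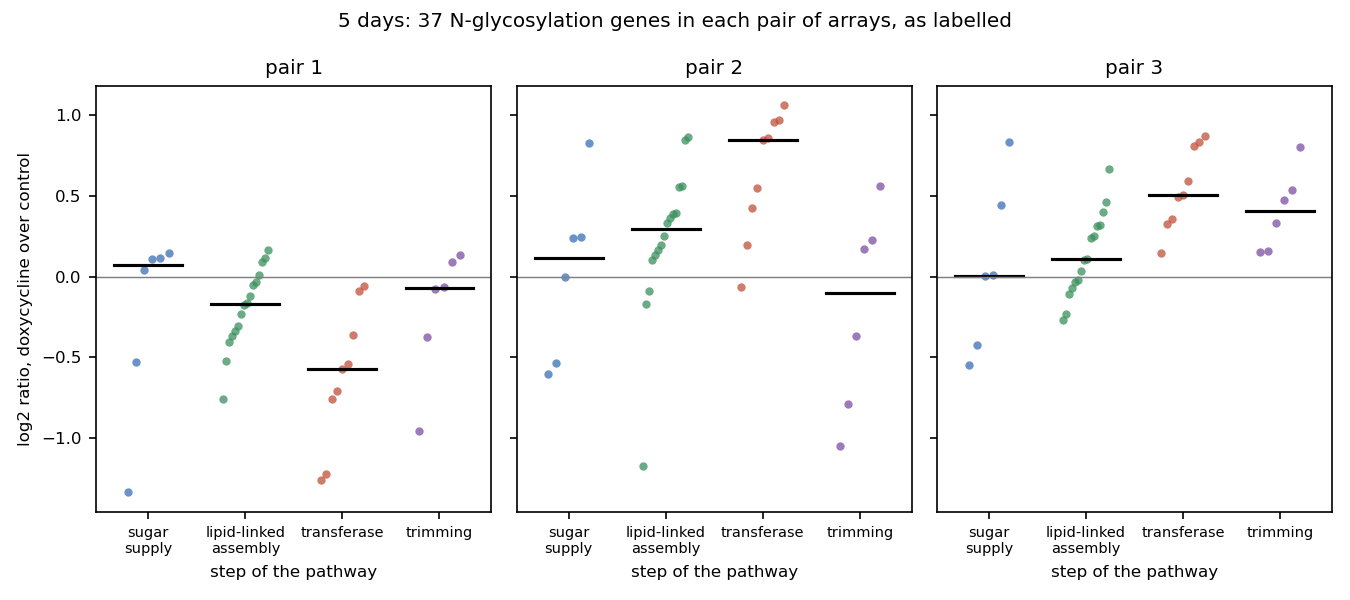
Log2 ratio of normalized signal, doxycycline over control as labelled, for the 37 members at 5 days, with a panel for each pair, the step of the pathway on the horizontal axis and a black bar at the median of each step. The transferase genes lie below 0 in pair 1 (median -0.57) and above 0 in pair 3 (median 0.51). Trimming genes lie on both sides of 0 in pair 1 and in pair 2, whose doxycycline library had the raised GAPDH 3'/5' ratio.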

How the data were processed

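The authors labelled cRNA from 18 cultures, 3 independent experiments per group, hybridized it to Affymetrix rat arrays and used GeneSpring (version 7.1). The authors deposited linear signal intensity values, 1 per probe set and array, scaled to a trimmed mean between 500.1 and 500.2. The summary of probes into probe sets is not given in the sources read here. Groups come from the labels.

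Intensities of 31042 probe sets were quantile normalized, floored at their 10th percentile (5.99) and log2 transformed. Of these, the upper 50% by mean signal, 15521 probe sets, were tested with limma (version 3.58.1, R 4.3.3) on the 6 arrays of each time with the pair as a block, at a Benjamini-Hochberg adjusted p under 0.05. P-values and SEs rest on the spread between these 3 pairs, moderated by limma toward a prior variance shared by all probe sets tested. They therefore do not measure the spread of a gene's own 3 pairs alone. The pairing came from shared replicate numbers and the ratios the methods list per experiment. For description, each array's deviation from its group's mean was correlated with that of its partner. No r is given for arrays of different numbers, so the values cannot set this pairing against another. For pairs 1 to 3, r was 0.667, 0.484 and 0.662 (24 h), 0.578, 0.256 and 0.359 (48 h), then 0.149, 0.142 and 0.109 (5 days).

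Genes were named by the platform annotation. It gives 1 gene to 20826 probe sets, of which 20758 were matched to RefSeq (GRCr8) by gene number. Values on each array are given for members past the threshold and for the highest and lowest member of each step at 48 h. The further genes named are those past the threshold at 48 h and some that did not pass. The members and lists were chosen with earlier results of these data known. Alternatives are listed with their effects in the closing section.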

Additional observations from a re-analysis of the deposited data

How the results depend on the processing

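At 24 h 2 members were called, at 48 h 8, and none after 5 days. Without quantile normalization, without the floor and with the mean of all probe sets of a gene they numbered 2 at 24 h and 9, 8 and 8 at 48 h, 1 of the last, Dpm1, being lower. Without the replicate block there were 0 at 24 h and 6 at 48 h. There were 0 at both times with no filter, with the upper 75% of probe sets, with all 18 arrays in 1 fit and by the 2-fold rule in 2 of 3 pairs. Leaving out each pair in turn gave 0 (lowest and highest) at both times. The methods' t-test gave 9 higher at 24 h and 18 higher and 2 lower (20) at 48 h unadjusted, where 486 and 293 of the 15521 probe sets were higher and lower at 24 h and 1264 and 1082 at 48 h, and 0 and 4 after Benjamini-Hochberg, where 0 probe sets passed at 24 h and 121 higher and 41 lower at 48 h. The fit of 12 arrays gave 9 and 16, and the prior variance with a trend, chosen after seeing the data, gave 12 and 21 on the upper 50%, 12 and 21 on the upper 75%, and 0 and 0 on all probe sets. Shares of all probe sets are not given here for the settings on normalization, floor, filter, block, left-out pairs and 18 arrays. Losses under them are therefore not read as particular to the members. The cause of the losses was not tested. The counts of 0 at 5 days, for 48 h against 24 h and for untreated cells stayed 0 under all alternatives run. The blocked and unblocked fits of untreated cells both gave 0. Median log2 ratios of the members lay between 0.10 and 0.15 at 24 h, between 0.27 and 0.30 at 48 h and between -0.02 and 0.32 at 5 days. Among the 13 members with array values at 24 h and 48 h, the ratio at these times that changed sign was that of Tusc3 at 24 h, which ran from -0.013 without replicate 1 to 0.022 without replicate 3. At 5 days single genes were not recomputed, and the pairs of Magt1 (-1.22, 0.96 and 0.87) and Ostc (-1.26, 0.84 and 0.84) differ in sign. The number of arrays limits the precision.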
